A study of Mus musculus with 10 samples.

Results

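Livers of 3 male mice homozygous for the S400D allele of Htra2 (S400D/S400D) were compared with livers of 3 heterozygous males (S400D/WT). These 6 males were chosen by their genotype labels from 10 samples in all. The remaining samples were 3 wild-type males (WT/WT), which entered the fit only to estimate the spread, and 1 homozygous female, which entered no test. All animals were C57BL6/N mice aged 2 months, and poly(A)-selected liver RNA was sequenced. Every compared animal carried at least 1 mutated allele, so the comparison asks what differs between livers with and without a remaining wild-type copy. The allele is carried by the whole animal, and the labels used here give no litter, collection time or feeding state. Replicates are numbered but no origin is stated for them, so each p-value reflects the spread among these libraries alone, which may be technical.

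HtrA2, also called Omi, is a serine protease of the mitochondrial intermembrane space, where it takes part in protein quality control. When released into the cytosol it cleaves inhibitor of apoptosis proteins and so favours caspase activity. Serine 400 lies in the C-terminal part of the protein and has been described as a phosphorylation site, and aspartate is commonly placed at such sites to imitate the charge of a phosphate.

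The codon that S400D alters is shown because it is the labelled difference between the groups. In the reading frame of the transcript Htra2-201 (GENCODE annotation, GRCm38) codon 400 lies in exon 7 of 8, at chr6:83051753-83051755 on the minus strand. It is printed 5′ to 3′ in the sense of the transcript, with the reference serine codon in capitals.
Htra2: gttatcctgggcTCCcccgcacacagg

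Htra2 RNA (gene 64704, chr6:83051266-83054571 on GRCm38.p6) was at 14.6, 15.6 and 14.5 CPM (counts scaled to library size) in homozygous males 1, 2 and 3. It was at 15.2, 16.7 and 15.7 CPM in heterozygous males 1, 2 and 3. The groups overlapped, and the log2 fold change was -0.09 (SE 0.14, adjusted p = 0.784). Here and below a fold change is homozygous minus heterozygous, with its standard error (SE), and the adjusted p comes from edgeR's quasi-likelihood test with Benjamini-Hochberg adjustment. A gene count does not read the codon, so it does not check the genotype labels.

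Across 12427 tested genes edgeR called 0 genes higher and 0 lower at an adjusted p under 0.05, and the lowest adjusted p was 0.104. At an unadjusted p under 0.05 there were 1025 higher genes (8.25% of those tested) and 1109 lower genes (8.92%), together 2134 (17.2%), where 621.4 would make up 5% of the genes. Limma-voom also called 0 genes, whereas DESeq2 called 265 higher (2.13%) and 280 lower (2.25%), together 545 (4.39%). In 1332 genes every homozygous male lay above every heterozygous male (10.7%), and in 1449 every homozygous male lay below (11.7%), together 2781 (22.4%). Without homozygous male 2 edgeR called 6 genes. These were the insulin receptor substrate Irs2 and the tubulin gene Tuba8, both higher, and Csrp3, Hmgn2, Faap100 and Klhdc7a, all lower, with adjusted p from 0.0187 to 0.0445. Csrp3, Hmgn2 and Klhdc7a were named after their values were seen. No gene below is therefore called in the full comparison, and the counts that follow are of genes at an unadjusted p under 0.05.

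Several libraries stood apart within their group. The 6 compared libraries held between 16240441 and 17168882 expected counts. Albumin took 8.64% to 10.3% of the counts in the homozygotes, 4.92%, 5.18% and 7.74% in heterozygous males 1, 2 and 3, and 6.78% to 7.56% in wild-type males. Heterozygous male 2 carried clock gene levels like those of the homozygotes, heterozygous male 1 had low macrophage markers, and homozygous male 1 had the most extreme levels of many lipid genes. The mean transcript length, weighted by abundance, was 1452 ± 11.3 bases in the homozygotes (SD, n = 3) and 1310 ± 48.5 bases in the heterozygotes. The Y-linked gene Ddx3y was at 46.6 to 51.9 CPM in the 6 males and at 0.0568 CPM in the female, as the sex labels have it. In bulk liver RNA, fewer cells of a type and less RNA per cell cannot be told apart.

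**Figure D1:**
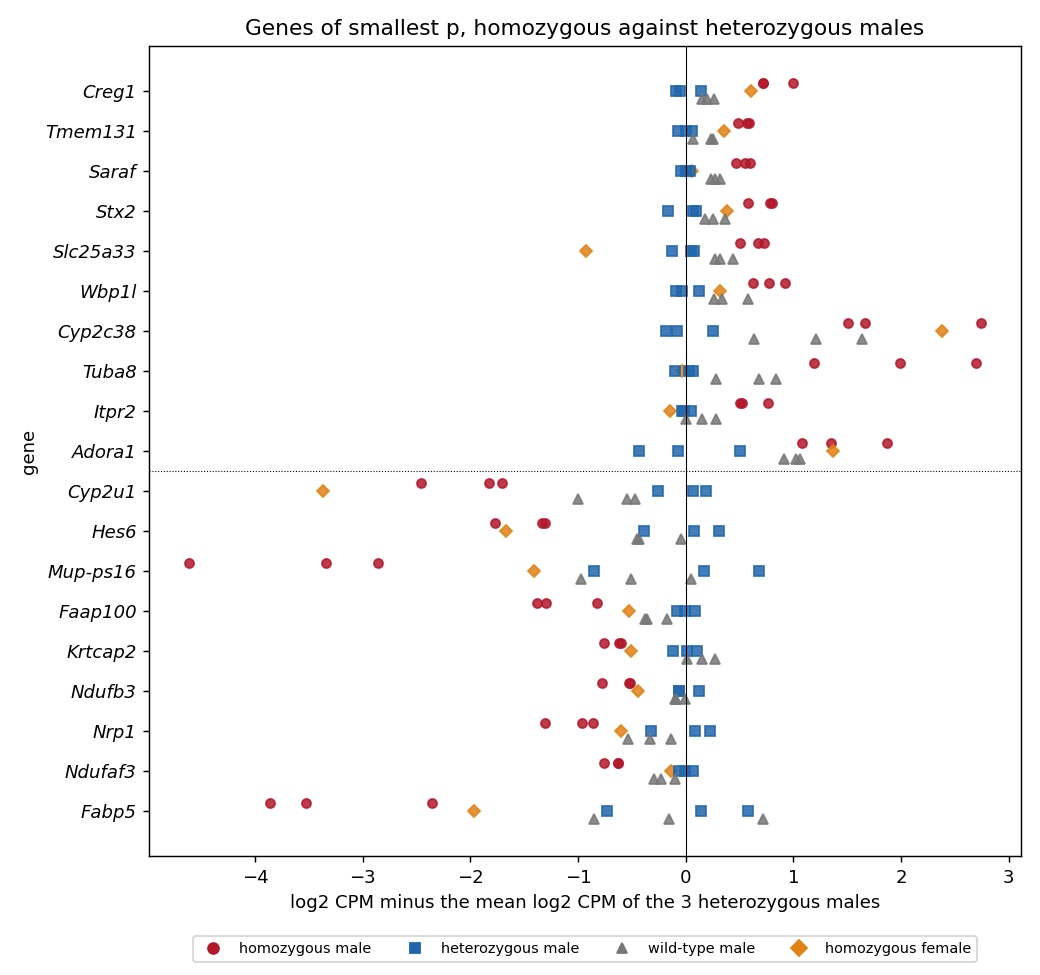
Level of 10 higher and 9 lower genes of smallest p in each library, as log2 CPM minus the mean log2 CPM of the 3 heterozygous males (points are single libraries, the dotted line separates higher from lower genes). In all 19 genes drawn the red homozygous males lie apart from the blue heterozygous males, and the grey wild-type males fall short of every homozygous male in 18.

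The 10 higher genes of smallest p included several of membrane traffic and calcium handling. Creg1, which encodes a glycoprotein of the endolysosomal system (chr1:165763758-165775309), was at 560, 462 and 463 CPM in homozygous males 1 to 3 and at 264, 271 and 311 CPM in heterozygous males 1 to 3 (log2 fold change 0.81, SE 0.12). Saraf, which limits store-operated calcium entry, was at 182, 172 and 187 CPM against 127, 120 and 124 CPM (0.54, SE 0.09). Itpr2, the main inositol trisphosphate receptor of hepatocytes, was at 51.0, 50.3 and 60.4 CPM against 36.7, 34.8 and 35.2 CPM (0.60, SE 0.11). The libraries of each group were close together in these genes, and the groups did not overlap. Tmem131, a membrane protein needed for collagen secretion (0.55, SE 0.09), Stx2, a syntaxin of membrane fusion (0.72, SE 0.12), Slc25a33, a mitochondrial carrier of pyrimidine nucleotides (0.64, SE 0.10), and Wbp1l (0.78, SE 0.13) were also higher. Larger differences stood in Cyp2c38, a cytochrome P450, at 135, 57.2 and 64.0 CPM against 17.8, 19.1 and 24.1 CPM (2.07, SE 0.36), and in Adora1, the adenosine A1 receptor, at 52.3, 36.6 and 30.2 CPM against 13.6, 10.6 and 20.3 CPM (1.42, SE 0.25). Tuba8 was at 10.9, 3.87 and 6.69 CPM against 1.72, 1.77 and 1.58 CPM (2.08, SE 0.36).

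The 10 lower genes of smallest p included 2 of respiratory complex I. Cyp2u1, a cytochrome P450 acting on long-chain fatty acids (chr3:131290491-131304157), was at 2.97, 4.63 and 5.00 CPM in the homozygotes and at 17.1, 18.7 and 13.7 CPM in the heterozygotes (log2 fold change -1.97, SE 0.23). Every homozygous male lay below every heterozygous male. Ndufb3, a subunit of complex I, was at 28.7, 34.0 and 34.3 CPM against 47.1, 47.2 and 53.5 CPM (-0.61, SE 0.10), and its assembly factor Ndufaf3 was lower too (-0.67, SE 0.11). Krtcap2, a subunit of the oligosaccharyltransferase that attaches glycans to proteins (chr3:89245904-89249729), was at 22.7, 25.1 and 25.4 CPM against 41.4, 35.4 and 38.9 CPM (-0.66, SE 0.10). Fabp5, a fatty acid-binding protein, was at 2.40, 6.79 and 3.01 CPM against 38.5, 21.0 and 52.1 CPM (-3.19, SE 0.54). Others were the transcriptional regulator Hes6 (-1.48, SE 0.20), the pseudogene Mup-ps16 (-3.56, SE 0.51), Faap100 of the Fanconi anaemia core complex (-1.14, SE 0.17) and the semaphorin receptor Nrp1 (-1.05, SE 0.17).

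All 20 genes had an adjusted p of 0.104 in edgeR, and DESeq2 gave each an adjusted p under 0.05. Since the genes were chosen for their small p in this contrast, the separation of their groups is a description. Only the homozygous female was outside the fit, so her values did not choose the genes. The homozygous female lay beyond all 3 heterozygous males on the homozygous side in 16 genes, the exceptions including Slc25a33, Tuba8 and Itpr2. In 12 of the 20 genes all 3 wild-type males lay beyond every heterozygous male in the direction of the homozygotes, so the heterozygotes were the farther group from the homozygotes in these. The wild-type males helped set the spread by which the genes were chosen. Choice for a wide gap also favours extreme heterozygous values, so this count is a description too. The female differs from the homozygous males in sex as well, and a single animal gives no spread.

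**Figure D2:**
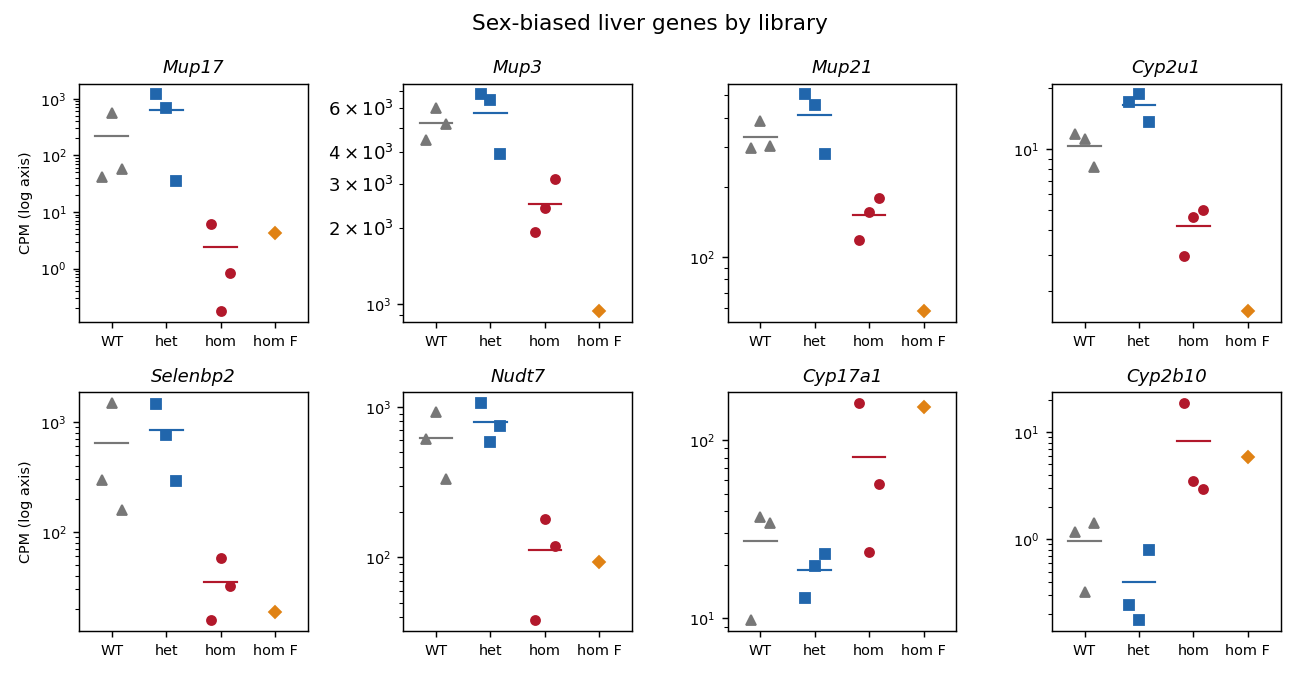
CPM on a log axis of 3 Mup genes, of Cyp2u1, Selenbp2 and Nudt7, and of Cyp17a1 and Cyp2b10, by library (points; horizontal lines are group means, WT wild-type, het heterozygous, hom homozygous males, hom F the homozygous female). The homozygous males lie below the heterozygous males in the first 6 genes and above them in the last pair.

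Genes with male-biased expression in mouse liver were lower in the homozygous males. In mice this pattern is set mainly by the male rhythm of growth hormone secretion, acting through the transcription factor STAT5B. All 19 tested male-biased genes had negative fold changes, with a median of -1.64 against 0.00 over all tested genes, and 16 of them were at an unadjusted p under 0.05. The list holds 4 Mup genes, which are also counted with their family below. Selenbp2, a selenium-binding protein, was at 15.8, 57.8 and 31.9 CPM in the homozygotes and at 1459, 759 and 293 CPM in the heterozygotes (log2 fold change -4.57, SE 0.98, adjusted p = 0.109). Nudt7, a peroxisomal coenzyme A hydrolase, was at 38.4, 179 and 119 CPM against 1056, 579 and 750 CPM (-2.82, SE 0.56, adjusted p = 0.104). The groups did not overlap in either gene, and the female stood at 18.7 and 93.3 CPM. The summed level of the list was 8734 to 10846 CPM in the homozygotes, 13743 to 55509 CPM in the heterozygotes and 15015 to 57348 CPM in the wild-type males. Leaving out single compared males left 12 to 17 members at an unadjusted p under 0.05.

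The major urinary proteins (Mup), small lipocalins that male liver secretes in large amounts for scent signalling, were lower as a family. All 20 tested members were negative (median -3.44), 18 were at an unadjusted p under 0.05, and DESeq2 called 15. Their summed level was 20618, 12832 and 19334 CPM in homozygous males 1 to 3, 87893, 74666 and 27518 CPM in heterozygous males 1 to 3 and 8025 CPM in the female. Heterozygous male 3 was the nearest to the homozygotes, and the wild-type males, at 32646, 94512 and 37950 CPM, spread as widely as the heterozygotes. Mup17 (chr4:61591929-61595865) was at 6.05, 0.176 and 0.843 CPM against 1188, 687 and 35.4 CPM (log2 fold change -8.06, SE 1.82, adjusted p = 0.110). Mup3 was at 1924, 2409 and 3130 CPM against 6783, 6478 and 3926 CPM (-1.20, SE 0.26, adjusted p = 0.109), and Mup21 at 119, 157 and 181 CPM against 504, 452 and 278 CPM (-1.43, SE 0.24, adjusted p = 0.104). Mup genes are near-identical copies, and the division of reads between single members is uncertain.

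The 250 bases upstream of the starts of Mup17 and Mup3 are shown because members of this family moved together, one by much more than the other. The sequences are from RefSeq (GRCm38.p6), at chr4:61595833-61596082 and chr4:62087318-62087567, both on the minus strand and printed 5′ to 3′. The Mup17 window reaches into the gene span given above. That of Mup3 adjoins its gene span, which ends at chr4:62087317. Capitals mark CAAAACA or its reverse complement, a form of the FOXO motif.
Mup17: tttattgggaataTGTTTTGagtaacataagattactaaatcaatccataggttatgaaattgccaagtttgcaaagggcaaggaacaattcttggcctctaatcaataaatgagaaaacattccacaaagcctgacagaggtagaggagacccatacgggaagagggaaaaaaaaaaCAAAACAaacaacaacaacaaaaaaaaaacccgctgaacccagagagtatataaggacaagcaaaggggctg
Mup3: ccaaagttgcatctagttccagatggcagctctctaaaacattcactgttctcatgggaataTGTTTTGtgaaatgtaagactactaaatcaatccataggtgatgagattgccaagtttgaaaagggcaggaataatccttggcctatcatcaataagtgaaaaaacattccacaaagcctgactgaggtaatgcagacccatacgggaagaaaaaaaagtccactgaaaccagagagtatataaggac

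Of 14 Mup promoters with a RefSeq sequence, 13 held CAAAACA on either strand within these 250 bases, against 5.55% of 27025 promoters of the same length. The copies are not independent, since the upstream sequence of Mup17 was 43.2% to 97.6% identical to those of 13 other Mup genes (median 82.1%). The STAT5-type motif TTCNNNGAA, searched on both strands, was in 0 of the 14 Mup windows and in 7.18% of all promoters. A match is a description of letters and not of a bound site.

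Female-biased liver genes tended the other way, and fewer could be tested. Of 18 listed genes 10 were expressed enough, and 9 of these were positive (median 1.57), with 3 at an unadjusted p under 0.05. Cyp17a1, a steroid hydroxylase, was at 161, 23.6 and 57.04 CPM in the homozygotes and at 13.1, 19.8 and 22.9 CPM in the heterozygotes (log2 fold change 2.12, SE 0.68, adjusted p = 0.183), with 154 CPM in the female. Cux2, a female-specific repressor, was at 84.6 CPM in homozygous male 1 but at 1.76 and 0.482 CPM in homozygous males 2 and 3, against 0.338 to 0.491 CPM in the heterozygotes (6.18, SE 2.07, adjusted p = 0.196). The Cyp17a1 groups did not overlap, with homozygous male 2 close to heterozygous male 3, while the Cux2 value rests on 1 animal. Without heterozygous male 3 the count at an unadjusted p under 0.05 was 7 of 11 tested members, and the median was 2.81. Every other omission of a compared male gave a median below 1.57 and a count of 2 or 3. Without homozygous male 2 the median was 1.27, with 7 positive and 3 negative members. Without heterozygous male 1 or 2, with 12 members tested, it was 1.21 and 1.07. A gene tested only because it is high in 1 group had to differ, so the tested members do not stand for the whole list.

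The signalling genes of growth hormone and STAT5 were split, with 7 positive and 7 negative among 14 tested (median 0.02). Igf1, the growth factor that growth hormone induces in liver, was at 286, 319 and 254 CPM against 535, 378 and 471 CPM (log2 fold change -0.69, SE 0.17, adjusted p = 0.122). Bcl6, a repressor that growth hormone pulses control and that favours male patterns, was at 35.2, 19.9 and 26.0 CPM against 50.0, 123 and 73.1 CPM (-1.60, SE 0.33, adjusted p = 0.105). Both genes were lower in each homozygous male than in each heterozygous male. The wild-type males stood at 426, 570 and 477 CPM of Igf1, near the heterozygotes. For Bcl6 they stood at 26.4, 29.5 and 40.2 CPM, near the homozygotes and below every heterozygous male.

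**Figure D3:**
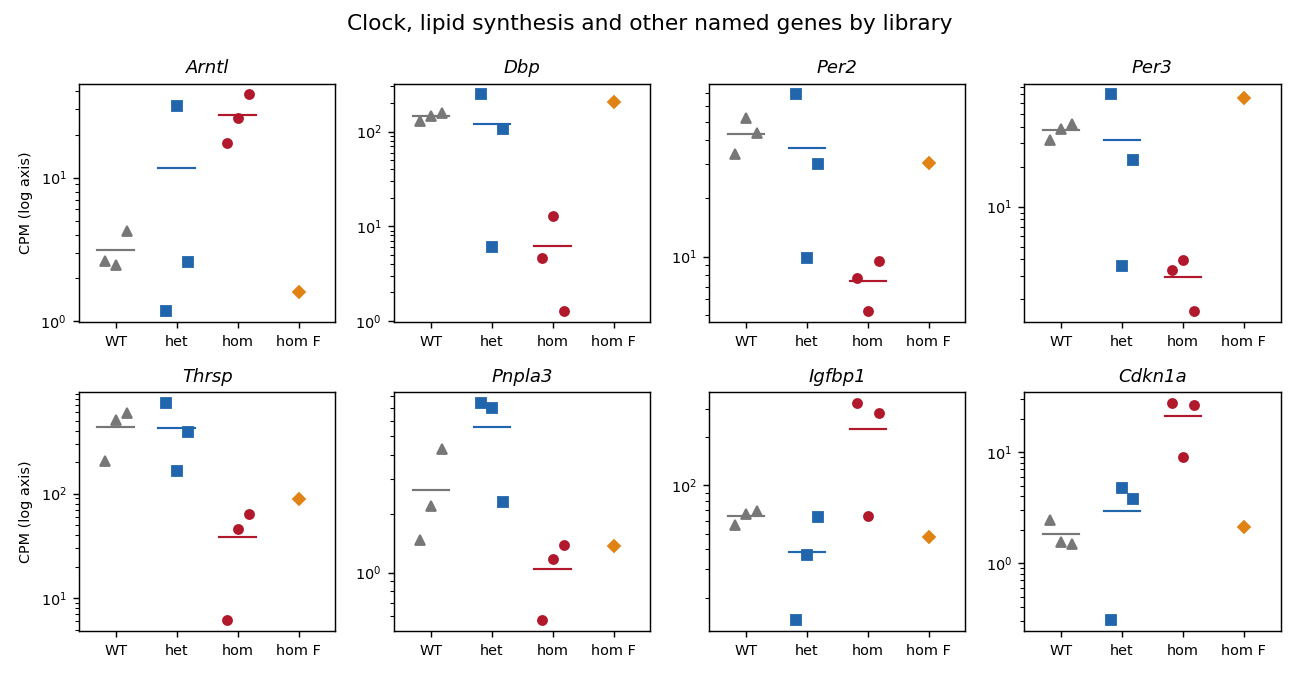
CPM on a log axis of 4 clock genes (top) and of Thrsp, Pnpla3, Igfbp1 and Cdkn1a (bottom) by library, with group means as lines and labels as in the plot of sex-biased genes. In the clock genes heterozygous male 2 lies with the homozygous males and not with the other 2 heterozygous males.

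Genes of fatty acid and triglyceride synthesis were lower in the homozygotes. All 19 tested members were negative (median -1.15), 13 were at an unadjusted p under 0.05, and in 13 the groups did not overlap. Thrsp, a regulator of lipogenesis, was at 6.17, 45.9 and 63.7 CPM in the homozygotes and at 732, 166 and 386 CPM in the heterozygotes (log2 fold change -3.47, SE 0.84, adjusted p = 0.121). Pnpla3, a lipid droplet protein, was at 0.571, 1.17 and 1.39 CPM against 7.37, 6.96 and 2.31 CPM (-2.40, SE 0.56, adjusted p = 0.115). Gpam, the first enzyme of glycerolipid synthesis, differed less, at 112, 178 and 167 CPM against 229, 236 and 229 CPM (-0.60, SE 0.17, adjusted p = 0.143). Homozygous male 1 had the lowest level of all 3 genes. Without it the median was -0.80 with 11 members at an unadjusted p under 0.05, and without heterozygous male 3 the median was -0.71 with 12.

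Cholesterol synthesis and uptake genes had a similar median but fewer members at an unadjusted p under 0.05. Of 24 tested members 23 were negative (median -1.20), 5 were at an unadjusted p under 0.05 and DESeq2 called 1. Sc5d, an enzyme of the late synthesis steps, was at 125, 456 and 367 CPM against 632, 1016 and 612 CPM (log2 fold change -1.25, SE 0.41, adjusted p = 0.190). Hsd17b7, another enzyme of these steps, was at 25.9, 47.0 and 36.2 CPM against 55.7, 84.6 and 56.2 CPM (-0.85, SE 0.30, adjusted p = 0.215). In both genes the groups did not overlap and homozygous male 1 was lowest. The count rested on single animals, with 14 members without homozygous male 2, 3 without homozygous male 1 or 3 and 1 without heterozygous male 2. The median without homozygous male 1 was -0.73.

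Clock genes did not separate the genotypes in every animal. The clock loop is driven by BMAL1, encoded by Arntl, which turns on the Per genes and the output gene Dbp, and the levels of all of them change over the day. Arntl was at 17.4, 26.1 and 38.1 CPM in homozygous males 1 to 3 and at 1.17, 31.5 and 2.59 CPM in heterozygous males 1 to 3 (log2 fold change 1.21, SE 0.91, adjusted p = 0.528). Dbp was at 4.63, 12.9 and 1.27 CPM against 247, 6.02 and 105 CPM (-4.25, SE 1.15, adjusted p = 0.142), and Per3 at 3.31, 3.92 and 1.63 CPM against 69.8, 3.54 and 22.5 CPM (-3.42, SE 0.86, adjusted p = 0.125). Heterozygous male 2 lay within or next to the homozygous range for these genes. The homozygous female, at 1.59 CPM of Arntl and 205 CPM of Dbp, lay with the other heterozygotes. Of 19 tested members 4 were higher and 6 lower at an unadjusted p under 0.05. Without heterozygous male 2 these counts were 6 and 9 with a median of -0.45 in place of -0.27, and without homozygous male 3, heterozygous male 1 or heterozygous male 3 the higher count was 0. The part of clock state in the other gene groups was not tested.

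Glucose and insulin-FOXO1 genes had a median near 0 but several higher members. Of 27 tested genes 14 were positive (median 0.06), with 7 higher and 2 lower at an unadjusted p under 0.05, and DESeq2 called 5 higher. Igfbp1, an insulin-repressed binding protein of insulin-like growth factors (chr11:7197787-7202546), was at 324, 64.8 and 282 CPM in the homozygotes and at 14.5, 36.8 and 63.8 CPM in the heterozygotes (log2 fold change 2.54, SE 0.62, adjusted p = 0.122). Irs2 was at 48.1, 32.9 and 52.7 CPM against 26.7, 24.1 and 27.0 CPM (0.78, SE 0.16, adjusted p = 0.105). Ppargc1a, a coactivator of fasting metabolism and mitochondrial biogenesis, was at 16.9, 14.1 and 19.0 CPM against 4.67, 8.68 and 7.55 CPM (1.26, SE 0.23, adjusted p = 0.104). The groups did not overlap in these 3 genes, although homozygous male 2 was close to heterozygous male 3 for Igfbp1. The 250 bases upstream of Igfbp1 are shown because insulin acts on this promoter through FOXO1 (RefSeq, GRCm38.p6, chr11:7197537-7197786, plus strand). Capitals mark CAAAACA, which 5 of 21 promoters of the list held.
Igfbp1: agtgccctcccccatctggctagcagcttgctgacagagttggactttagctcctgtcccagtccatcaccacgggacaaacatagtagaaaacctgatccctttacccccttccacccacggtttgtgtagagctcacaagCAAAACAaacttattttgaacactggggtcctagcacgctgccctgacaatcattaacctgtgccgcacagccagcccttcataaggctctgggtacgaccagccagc

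Cell cycle brakes of the p53 pathway included single genes with large differences. Cdkn1a, which encodes the inhibitor p21, was at 27.6, 9.14 and 26.7 CPM in the homozygotes and at 0.307, 4.72 and 3.77 CPM in the heterozygotes (log2 fold change 2.84, SE 0.68, adjusted p = 0.121). Gadd45b, a stress-induced gene, was at 11.5, 1.17 and 2.71 CPM against 0.737, 1.18 and 0.732 CPM (2.53, SE 0.75, adjusted p = 0.160). The Cdkn1a groups did not overlap, while homozygous male 2 lay within the heterozygous range for Gadd45b. The female was at 2.10 CPM of Cdkn1a, among the heterozygotes. Of 19 tested members of the list 4 were higher and 1 lower at an unadjusted p under 0.05 (median 0.13). Among 20 cyclin and proliferation genes 1 was higher, the replication helicase subunit Mcm7 (0.48, SE 0.12, adjusted p = 0.121), and 1 was lower, cyclin D1 or Ccnd1 (-1.56, SE 0.69, adjusted p = 0.287).

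Acute phase genes, which hepatocytes express in inflammation, were higher in the homozygotes. Of 25 tested members 23 were positive (median 0.60), 13 were at an unadjusted p under 0.05, and DESeq2 called 7. Serpina3m, a serine protease inhibitor, was at 789, 455 and 457 CPM in the homozygotes and at 222, 212 and 210 CPM in the heterozygotes (log2 fold change 1.40, SE 0.31, adjusted p = 0.109). Lbp, which binds bacterial lipopolysaccharide, was at 372, 208 and 183 CPM against 77.1, 107 and 100 CPM (1.42, SE 0.33, adjusted p = 0.115). The groups did not overlap in these genes, and homozygous male 1 was highest. The summed level was 42445 to 68326 CPM in the homozygotes, 33035 to 36586 CPM in the heterozygotes and 33850 to 55969 CPM in the wild-type males, so the wild-type range overlapped both. Against wild type the list's median was 0.23 in the homozygotes and -0.40 in the heterozygotes, in comparisons that share the wild-type libraries. Without homozygous male 1 there were 6 members at an unadjusted p under 0.05 and a median of 0.40, and without heterozygous male 1 or 3 there were 7.

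Enzymes of xenobiotic metabolism were more often higher, while bile acid genes were lower only in single members. Of 23 xenobiotic genes 16 were positive (median 0.27), with 6 higher and 0 lower by edgeR at an unadjusted p under 0.05, and DESeq2 called 4 higher and 0 lower. Without homozygous male 1 the edgeR count was 9 higher. Without homozygous male 3 or heterozygous male 2 it was 4 higher and 1 lower. Without homozygous male 2 the median was 0.12, with 13 positive. Cyp2b10, the classical target of the receptor CAR, was at 18.6, 3.51 and 2.95 CPM against 0.246, 0.177 and 0.789 CPM (log2 fold change 4.33, SE 0.92, adjusted p = 0.109). Cyp3a13 was at 545, 261 and 306 CPM against 153, 157 and 128 CPM (1.35, SE 0.28, adjusted p = 0.105). Neither pair of groups overlapped. Cyp7a1, the rate-limiting enzyme of bile acid synthesis, was at 35.3, 23.2 and 46.9 CPM against 129, 120 and 118 CPM (-1.80, SE 0.47, adjusted p = 0.135), and Cyp7b1, which hydroxylates oxysterols, at 55.8, 42.3 and 40.0 CPM against 271, 141 and 123 CPM (-1.95, SE 0.49, adjusted p = 0.125). The bile acid list of 18 genes did not shift as a whole, with 11 positive, 7 negative and a median of 0.06. At an unadjusted p under 0.05 it held 1 higher and 2 lower members. Over all tested genes 8.25% were higher and 8.92% lower at that p. The female differed from the homozygous males in Cyp7a1, at 229 CPM.

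PPARA targets of fatty acid oxidation and ketogenesis did not shift as a list. Of 27 tested members 18 were positive (median 0.13), with 4 higher and 1 lower at an unadjusted p under 0.05. Acadm, the medium-chain acyl-CoA dehydrogenase, was at 488, 369 and 405 CPM against 241, 232 and 346 CPM (log2 fold change 0.62, SE 0.22, adjusted p = 0.209). Fabp1, the abundant fatty acid-binding protein of liver, went the other way, at 233, 1499 and 844 CPM against 3359, 2169 and 4524 CPM (-1.96, SE 0.60, adjusted p = 0.165). Both pairs of groups were apart. Without heterozygous male 3 the higher count was 9 and the median 0.34, and without heterozygous male 2 there were 2 higher and 4 lower members and a median of -0.01.

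**Figure D4:**
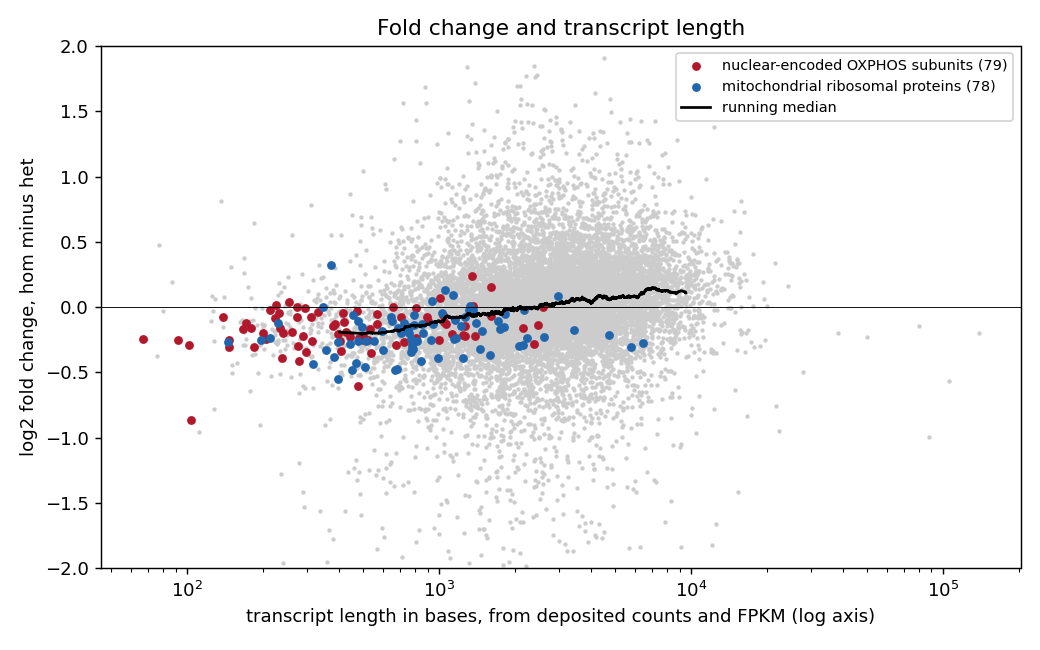
Log2 fold change, homozygous minus heterozygous males, against transcript length on a log axis for the tested genes (82 genes beyond ±2 are not drawn), with OXPHOS subunits in red, mitochondrial ribosomal proteins in blue and a running median over genes in black. The running median is below 0 for short and above 0 for long transcripts, and most members of both families are short.

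Nuclear genes of the mitochondrial respiratory chain and ribosome were lower by small amounts in many members. Of 79 tested subunits of oxidative phosphorylation (OXPHOS) 70 were negative (median -0.16), and 11 were lower at an unadjusted p under 0.05, Ndufb3 among them. Of 78 mitochondrial ribosomal proteins 72 were negative (median -0.20), with 33 lower and 1 higher. Mrpl55 of the large subunit was at 13.9 to 14.7 CPM against 18.03 to 20.8 CPM (log2 fold change -0.47, SE 0.10, adjusted p = 0.109), without overlap. The summed level of the ribosomal proteins was 2032 ± 14.7 CPM in the homozygotes (SD, n = 3) and 2302 ± 71.7 CPM in the heterozygotes, and that of OXPHOS was 11390 ± 1030 CPM and 12223 ± 794 CPM. Without homozygous male 1 or heterozygous male 1 the OXPHOS count was 6, without homozygous male 3 it was 28, without homozygous male 2 it was 7, and without heterozygous male 1 the mitochondrial ribosome count was 19. The OXPHOS median without homozygous male 1 was -0.07.

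These families have short transcripts, and fold changes followed transcript length across the transcriptome. The median fold change was -0.12 in the fifth of genes with the shortest transcripts (66.8 to 1398 bases) and 0.09 in the fifth with the longest. Spearman's rho of fold change with length was 0.23 over 12427 genes, which are not independent replicates. With the trend on length removed in each library, a setting added once the data had been seen, the OXPHOS median was -0.02 with 3 lower and 4 higher members, and the mitochondrial ribosome median was -0.08 with 15 lower. The cytosolic ribosomal proteins, whose median was -0.09 with 5 lower members among 77, then had a median of 0.10. Single genes kept most of their difference, with Ndufb3 at -0.44, Krtcap2 at -0.46 and Ndufaf3 at -0.59.

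Among mitochondrial proteases and chaperones, the class to which HtrA2 belongs, 9 of 24 tested genes were positive and 15 negative (median -0.08), with 2 higher and 4 lower at an unadjusted p under 0.05. Oma1, a stress-activated protease of the inner membrane, was at 14.1, 16.9 and 14.4 CPM in the homozygotes and at 19.7, 21.1 and 21.0 CPM in the heterozygotes (log2 fold change -0.45, SE 0.10, adjusted p = 0.113). Parl, a rhomboid protease that cuts PINK1, was at 24.1, 25.2 and 23.0 CPM against 33.7, 28.9 and 30.2 CPM (-0.36, SE 0.09, adjusted p = 0.122). Immp2l, a peptidase of the inner membrane, was at 8.74, 16.6 and 19.3 CPM against 27.0, 22.3 and 27.5 CPM (-0.78, SE 0.24, adjusted p = 0.170). All 3 were lower in each homozygous male. The fold changes of the list ran from -0.78 to 1.29. Its summed level went the other way from these 3 genes, at 2917 ± 106 CPM in the homozygotes (SD, n = 3) and 2703 ± 142 CPM in the heterozygotes. Apoptosis genes, into which HtrA2 feeds by cleaving IAP proteins, held 2 higher and 2 lower among 27. This is near the shares over all tested genes, 8.25% higher and 8.92% lower. The initiator caspase gene Casp8 was among the lower ones (-0.36, SE 0.12, adjusted p = 0.197), but its groups overlapped. The mitophagy, autophagy and dynamics list (30 genes, median 0.07) held 4 higher and 2 lower, including Gabarapl1, an autophagosome protein, at 654, 579 and 660 CPM against 389, 357 and 451 CPM (0.66, SE 0.13, adjusted p = 0.104). In the tricarboxylic acid cycle list of 25 genes 2 were lower and 0 higher by edgeR at an unadjusted p under 0.05, and DESeq2 called 0.

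**Figure D5:**
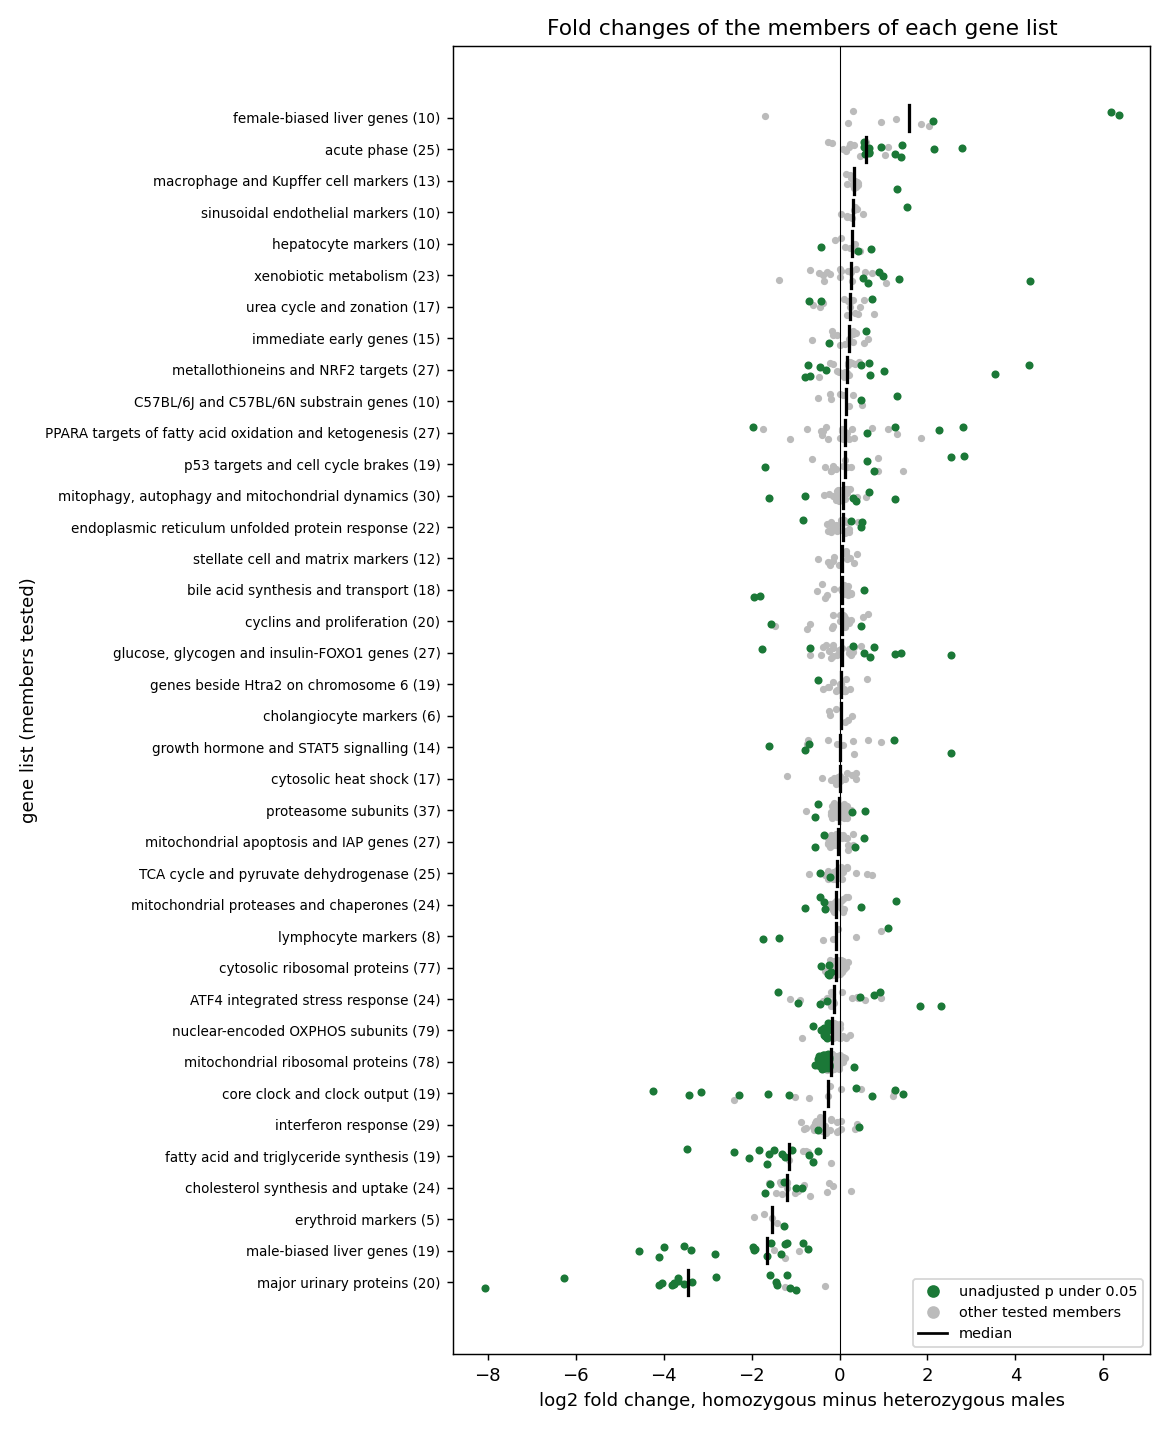
Log2 fold change, homozygous minus heterozygous males, of every tested member of the lists with at least 3 tested members (number in brackets), ordered by the median (black bar), with members at an unadjusted p under 0.05 in green. Mup and male-biased genes lie at the bottom with medians of -3.44 and -1.64, and female-biased and acute phase genes at the top with 1.57 and 0.60.

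Markers of other liver cell types were measured beside these groups. All 13 macrophage and Kupffer cell markers were positive (median 0.33), but in 0 were the groups apart and 1, the scavenger receptor Marco, was at an unadjusted p under 0.05 (log2 fold change 1.30, SE 0.57, adjusted p = 0.284). Their summed level was 584 to 657 CPM in the homozygotes and 294 to 659 CPM in the heterozygotes, and without heterozygous male 1, the lowest, the median was 0.05. All 10 sinusoidal endothelial markers were positive (median 0.30, or 0.19 without heterozygous male 1), with Lyve1, a hyaluronan receptor, at 24.3, 10.48 and 9.76 CPM against 4.91, 5.49 and 4.84 CPM (1.55, SE 0.36, adjusted p = 0.115). Erythroid markers were negative in 5 of 5 tested genes (median -1.53, or -0.19 without heterozygous male 3). Of 10 hepatocyte markers 8 were positive (median 0.29), and their summed level was 142191 to 164418 CPM in the homozygotes and 97927 to 125490 CPM in the heterozygotes. Albumin (Alb) made up most of this sum, with means of 95688 CPM and 58170 CPM. Apoa1, an apolipoprotein, was among the negative ones, with means of 6834 CPM and 9119 CPM (-0.41, SE 0.17, adjusted p = 0.250). The part of these cell type markers in the gene groups above was not tested.

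The region around Htra2 and, for the 6 compared males, the strain background were checked as well. Of 19 tested genes beside Htra2 on chromosome 6, 11 were positive and 8 negative (median 0.03), and 1, Wbp1, was lower at an unadjusted p under 0.05 (-0.49, SE 0.17, adjusted p = 0.196). Nnt, a mitochondrial transhydrogenase that C57BL/6J mice lack and C57BL/6N mice carry, was at 167, 164 and 168 CPM in the homozygotes and at 116, 97.9 and 140 CPM in the heterozygotes (0.50, SE 0.15, adjusted p = 0.161). It was present in every library, and the groups did not overlap. Entpd4, whose near-identical copy Entpd4b can take its reads, was at 0 in every homozygous and heterozygous male, so it does not separate these groups. The wild-type males, which entered the fit for the spread, are not covered by this check of Entpd4. Whether they share the strain background of the compared males was therefore not settled here. Of 10 tested genes listed for these substrains 6 were positive and 3 negative (median 0.15), and the remaining gene had no fold change of either sign. By edgeR 2 were higher at an unadjusted p under 0.05.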

How the data were processed

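The authors deposited 1 table with expected counts, FPKM and TPM for each of 77712 transcripts and each sample. The expected counts (estimated reads, not normalised), the FPKM values (scaled by the authors to transcript length and library total) and the TPM values (scaled by the authors to a fixed sum) are named in the deposited column headers. Per the submitters' processing notes, HISAT, Bowtie2 and the build GRCm38.p6 were used; their roles and versions, the counting program and its use of strand are items not given in the sources used here. TPM was not used.

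Expected counts were summed to 19271 genes (19214 matched to RefSeq) and rounded; 94.5% of the nonzero sums were whole to within 0.05 reads. The 9 deposited mean columns were not used. The 9 males were fitted with genotype in edgeR 4.0.16 (R 4.3.3; TMM factors, edgeR's filter on low counts, 6 residual degrees of freedom, adjusted p threshold 0.05). DESeq2 1.42.0 and limma 3.58.1 served as alternatives; DESeq2 gave no adjusted p for 968 genes. The code was tested on simulated data. Libraries held 16240441 to 17264289 expected counts; 3 libraries a group limit the precision. Levels are CPM with TMM factors over all 10 samples. Transcript length is the length implied by the deposited counts and FPKM.

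The comparison and the 41 gene lists were chosen with earlier results of these data known. Named were Htra2, the 10 genes of smallest p per direction with at least 1 CPM in the higher group and a regular name, up to 3 members per list of smallest unadjusted p under 0.05, and clock, sex and strain checks; a few genes named by it are not reported here. Lists are described by counts and medians, without a list test.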

Additional observations from a re-analysis of the deposited data

How the results depend on the processing

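By edgeR or limma, 0 genes were called in either direction under other normalisations, other filters on low counts and limma-voom. The same held with only the 6 compared males, with all 10 samples, and on FPKM with a pseudocount of 1 or 0.1. It also held with the length trend removed and on omission of any compared male except homozygous male 2. No fit left out a wild-type male. DESeq2 called 265 higher and 280 lower. Leaving out 1 compared male at a time gave 0 to 2 higher and 0 to 4 lower calls. At an unadjusted p under 0.05 it gave 724 to 1197 higher and 787 to 1431 lower genes. With the replicate number as a block there were 0 calls, with 855 higher and 994 lower genes at an unadjusted p under 0.05. Deviations of same-numbered males correlated at 0.205, 0.147 and 0.0174, and those of differently numbered males at -0.179 to 0.0886. Whether the numbers pair the samples cannot be settled from so few values. Under this block cholesterol synthesis had 17 and acute phase 8 members at an unadjusted p under 0.05. The library size alone gave 793 higher and 1146 lower such genes, a larger share of lower genes than the 1025 and 1109 of the TMM scaling.

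Of the list medians, that of the ATF4 list turned from -0.13 to 0.0814 with at least 1 CPM in 3 males, and that of cytosolic ribosomal proteins from -0.09 to 0.10 with the length trend removed; the cause of the former was not tested. Ddx3y, whose fold change is 0.01, was negative in 8 settings: -0.0113 by library size, -0.00859 and -0.00911 in the FPKM fits, -0.0566 with the length trend removed, and negative in 4 of the fits without 1 male, whose range was -0.0256 to 0.0593. With 3 animals a group, a p that misses the threshold does not show that levels are alike.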

Other observations

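Stress pathways did not shift as whole lists, but the ATF4 list held members of both directions. Of 24 tested ATF4 genes, which respond to amino acid shortage and mitochondrial stress, 5 were higher and 4 lower at an unadjusted p under 0.05. Chac1, a glutathione-degrading enzyme, was at 8.91, 5.10 and 8.31 CPM in the homozygotes and at 1.23, 1.77 and 3.21 CPM in the heterozygotes (log2 fold change 1.84, SE 0.36, adjusted p = 0.104). Cth, which makes cysteine, was at 737, 426 and 642 CPM against 273, 379 and 308 CPM (0.91, SE 0.20, adjusted p = 0.110). The groups did not overlap in either gene. Genes of the endoplasmic reticulum's unfolded protein response held 3 higher and 1 lower among 22 genes (median 0.07). Without homozygous male 1 they held 1 higher and 6 lower, with a median of -0.12. Cytosolic heat shock genes held 0 of 17 at that p by edgeR, with 0 called by DESeq2.

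Metallothioneins and NRF2 targets held 6 higher and 5 lower among 27. Mt1, a zinc-binding metallothionein, was at 535, 322 and 91.0 CPM against 10.8, 14.1 and 57.1 CPM (3.53, SE 1.06, adjusted p = 0.162), and Nox4, an NADPH oxidase, at 18.5, 20.2 and 18.8 CPM against 39.8, 34.4 and 25.4 CPM (-0.79, SE 0.15, adjusted p = 0.104). Neither pair of groups overlapped, and the female was at 451 CPM of Mt1 and 7.26 CPM of Nox4. Interferon response genes were negative in 23 of 29 cases (median -0.35) with 1 higher and 1 lower at an unadjusted p under 0.05, and 9 lower without homozygous male 2. Without homozygous male 1 the median was -0.14. The summed level of the list was 785, 1269 and 1346 CPM in homozygous males 1 to 3 and 1025 to 1354 CPM in the heterozygotes. Proteasome subunits (37 genes, median -0.02) held 2 higher and 2 lower, among them the immunoproteasome subunit Psmb10 (-0.55, SE 0.10, adjusted p = 0.104). Urea cycle and zonation genes (17 genes, median 0.23) held 1 higher and 2 lower, and immediate early genes (15 genes, median 0.21) 1 of each. Stellate cell (12 genes), cholangiocyte (6) and neutrophil markers (2) had 0 members at an unadjusted p under 0.05 by edgeR, and DESeq2 called 0. Jchain of antibody-secreting cells was higher, at 5.88, 7.38 and 7.23 CPM against 2.76, 2.95 and 3.77 CPM (1.11, SE 0.24, adjusted p = 0.109), and the pancreatic elastase gene Cela1 lower (-1.71, SE 0.47, adjusted p = 0.143).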
